A study of Mus musculus with 2 samples.

Results

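The genes described here are 60 components of Wnt signalling: 15 Wnt ligands, 16 frizzled receptors and coreceptors, 11 secreted antagonists, 6 R-spondins and their Lgr receptors, and 12 intracellular and nuclear effectors. They were chosen by name, and every probe set that the platform annotation pairs with exactly 1 gene symbol from this list was used. There were 127 such probe sets, covering 59 of the 60 genes, out of 18193 genes that the annotation covers in this way. No probe set was annotated to Tcf7 alone, so Tcf7 was not analysed here. The material was a Venus-positive and a Venus-negative cell fraction, both sorted by flow cytometry from embryos of Col2a1-Venus-Tg mice on a C57Bl/6 background. The same transgene was thus present in the animals of both fractions. Per the series description the transgene marks chondrocytes, the cartilage-forming cells, with Venus, a variant of green fluorescent protein. Each fraction gave 1 total RNA sample on 1 Affymetrix mouse array. Embryonic stage, number of animals, sorting gates and the promoter fragment that drives Venus were not stated in the sources used here. The question was which Wnt components have a different signal in Venus-positive than in Venus-negative cells.

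Wnt ligands are secreted lipid-modified glycoproteins that bind frizzled receptors. In the canonical branch a frizzled pairs with Lrp5 or Lrp6, a destruction complex that contains Apc and Axin is inhibited, and beta-catenin (Ctnnb1) enters the nucleus to act with Tcf and Lef factors. In other branches, ligands such as Wnt5a signal through Ror receptors and the planar cell polarity proteins Vangl1 and Vangl2 without beta-catenin. Secreted antagonists act outside the cell. Sfrp proteins, Frzb and Wif1 bind Wnt ligands, whereas Dkk1, Dkk2, Sost and Sostdc1 bind the Lrp coreceptors. In the developing skeleton, beta-catenin activity favours bone over cartilage in early progenitors, and Wnt5a and Wnt5b take part in the growth of cartilage elements.

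The values are linear MAS5 signal intensities, 1 per probe set and array. With 1 array per fraction there is no replicate error, no test between the fractions was possible, and each difference describes this pair of arrays. In a sorted bulk sample, fewer cells of a type and less RNA per cell cannot be told apart. Signals under 22.5, the median of all signals on both arrays, were raised to this floor. Genes with no probe set at or above it on either array count as not measured. A fold with 1 side under the floor is a lower bound, written "at least". Where a gene had several probe sets, the brightest one by mean log2 signal represents it. The Venus-positive array was dimmer as a whole. Ratios are Venus-positive over Venus-negative signals. Their median over 11789 measured genes was -0.33 on the log2 scale, so ratios are given as deposited and, where called relative, with this median subtracted. Probe sets of the same gene differed in log2 ratio with a pooled SD of 0.34 over 5445 genes, which reflects probe disagreement and not biological error. All 13 chondrocyte markers differed upward by 2-fold or more in Venus-positive cells, with summed signals of 47536 in Venus-positive cells against 3825 in Venus-negative cells, among them Matn1 (4478 and 56.3) and Comp (2159 and 27.5). Of 13 fibroblast and perichondrium markers, 11 were lower by 2-fold or more, with summed signals of 11527 in Venus-positive cells against 25582 in Venus-negative cells.

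Of the 54 measured Wnt genes, 3 were higher and 19 lower in Venus-positive cells by 2-fold or more. That is 5.56% and 35.2% of the Wnt genes, where 2.79% of all measured genes were higher and 11.6% lower by this size. Relative to the median gene, 5 Wnt genes were higher and 10 lower by at least 2-fold (9.26% and 18.5%), against 5.06% and 6.45% of all measured genes. The median log2 ratio of the Wnt genes was -0.66, compared with -0.33 for all measured genes. At the size of 4-fold, 1 Wnt gene was higher and 3 were lower, where 0.874% and 2.24% of all measured genes were. The single gene past 4-fold in the higher direction was the receptor gene Fzd9, and the 3 past 4-fold in the lower direction were Dkk2, Sostdc1 and Rspo2. A 2-fold difference held on both scales for 13 genes. Those higher were Fzd9, Frzb and Sfrp5, and those lower were Dkk2, Sostdc1, Rspo1, Rspo2, Rspo3, Nkd2, Wnt5a, Wnt6, Wnt7b and Ror1. Of the 22 genes past 2-fold as deposited, 11 rested on 1 measured probe set, and the 11 with several had all of them on 1 side of 0 as deposited. On that scale 9110 of all 11789 measured genes lay below 0. Relative to the median gene, Wnt5b and Vangl2 also had a measured probe set above 0. Ror1, Dkk1, Nkd1 and Nkd2 had such a probe set only as a bound. Its Venus-positive signal was below the floor, so the actual ratio may lie below the median gene. Only 2 of the 11 with several, Frzb and Sostdc1, had every measured probe set past 2-fold. For 6 of the 22 genes 1 side lay below the floor, so the filter on low signals fixed their direction. These were Wnt2, Fzd10, Dkk1 and Rspo1, lower, and Fzd9 and Sfrp5, higher.

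**Figure D1:**
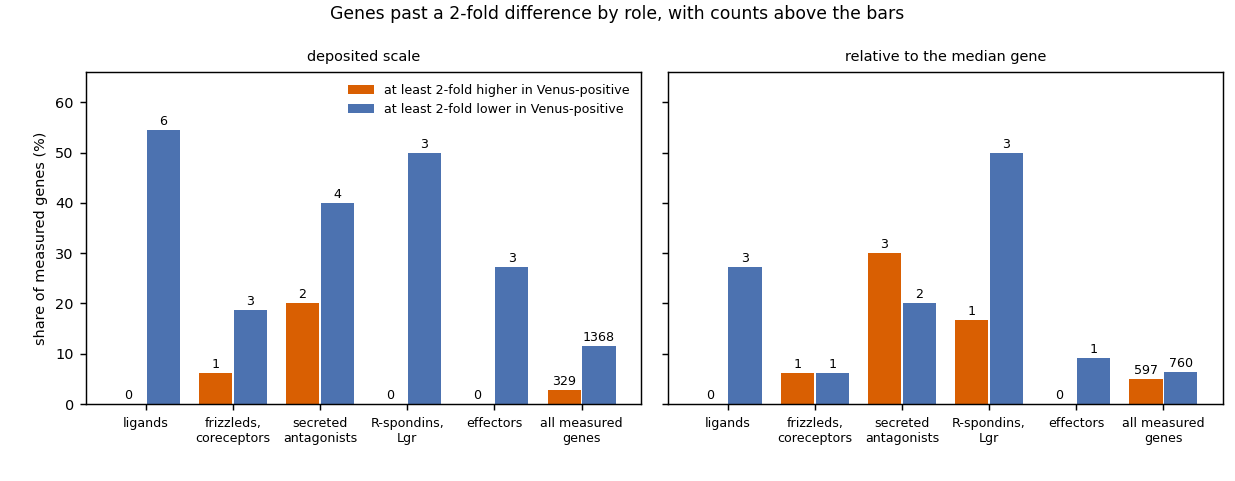
Share of measured genes, in percent, with a signal higher by 2-fold or more (orange) or lower by 2-fold or more (blue) in Venus-positive than in Venus-negative cells, by role and for all 11789 measured genes, as deposited (left) and relative to the median gene (right). Numbers above the bars count genes. Among ligands 6 were lower and none higher as deposited, and 3 were lower relative to the median gene.

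RefSeq tables of build GRCm38.p6 held a promoter window for 40 of the 60 genes. The windows shown are those of Fzd9 and Dkk2, the genes furthest apart in each direction, and of Frzb, the higher gene with both probe sets past 2-fold. Several genes with larger differences than Frzb, among them Sostdc1, Rspo2 and Rspo3, are not shown. Each window runs 5′ to 3′ on the strand of the gene, from 250 bases before to 50 bases after the annotated start. Capitals mark matches, on either strand, to the letters CTTTGA (the core bound by TCF/LEF factors), AACAAT (bound by SOX factors) or TATAAA (the TATA box); the letters of these motifs do not overlap each other in the windows shown. The Fzd9 window lies at chr5:135250998-135251297 on the minus strand, that of Frzb at chr2:80447347-80447646 on the minus strand and that of Dkk2 at chr3:132085042-132085341 on the plus strand.
Fzd9: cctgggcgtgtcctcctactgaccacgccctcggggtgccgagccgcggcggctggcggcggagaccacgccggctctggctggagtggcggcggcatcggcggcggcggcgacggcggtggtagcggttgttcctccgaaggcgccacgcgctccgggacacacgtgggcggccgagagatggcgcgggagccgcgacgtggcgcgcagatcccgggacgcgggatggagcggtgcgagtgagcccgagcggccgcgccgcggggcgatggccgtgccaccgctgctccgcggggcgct
Frzb: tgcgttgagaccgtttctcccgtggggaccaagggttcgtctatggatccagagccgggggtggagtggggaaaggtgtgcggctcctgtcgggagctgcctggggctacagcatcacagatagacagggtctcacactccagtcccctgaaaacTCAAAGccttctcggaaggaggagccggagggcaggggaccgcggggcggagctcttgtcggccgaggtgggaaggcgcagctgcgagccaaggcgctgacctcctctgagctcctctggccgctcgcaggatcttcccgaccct
Dkk2: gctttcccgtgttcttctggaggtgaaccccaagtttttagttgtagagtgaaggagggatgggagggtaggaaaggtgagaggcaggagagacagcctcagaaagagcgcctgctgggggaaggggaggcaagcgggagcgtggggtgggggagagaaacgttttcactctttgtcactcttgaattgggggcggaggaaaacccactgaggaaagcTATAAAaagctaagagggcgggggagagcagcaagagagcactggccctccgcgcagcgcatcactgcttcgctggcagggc

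The Fzd9 window held none of the 3 motifs and was 78.0% G and C, where the median over 32544 windows was 53.0%. The Frzb window had 1 TCF/LEF match, starting at -95 from the annotated start, and the Dkk2 window had 1 TATA match, starting at -32. Over all windows 16.02% held the TCF/LEF letters, 10.6% the SOX letters and 13.6% the TATA letters. Of the 49 windows of Wnt genes these were 7, 3 and 10 windows, or 14.3%, 6.12% and 20.4%. A match describes letters in this window and is not evidence of binding.

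Of 15 ligand genes 11 were measured, 6 were lower by 2-fold or more in Venus-positive cells and none was 2-fold higher. These 6 are 54.5% of the measured ligands, where 11.6% of all measured genes were lower by this size. The log2 ratio was below 0 for 10 of the 11, as it was for 9110 of all 11789 measured genes. Relative to the median gene 8 ligands were below 0 and 3, Wnt4, Wnt7a and Wnt16, above. For Wnt7a and Wnt16 this is a bound set by the floor, and the actual ratio may lie below the median gene. Wnt2, Wnt7a, Wnt10a and Wnt16 reached the floor in Venus-negative cells only, so the filter on low signals fixed their direction. The median log2 ratio was -1.02 as deposited and -0.69 relative to the median gene. On the relative scale 3 ligands were lower by 2-fold or more, or 27.3%, where 6.45% of all measured genes were. Wnt5a, the ligand of the Ror receptors and a regulator of limb and skeletal outgrowth, gave 437 in Venus-positive cells against 1178 in Venus-negative cells on probe set 1436791_at, 2.69-fold lower. A further pair of Wnt5a probe sets gave 256 against 689 (2.69-fold lower) and 63.9 against 247 (3.87-fold lower). The fourth was dim, at 17.1 in Venus-positive cells against 29.5 in Venus-negative cells. The brighter 3 Wnt5a probe sets were thus each past 2-fold. The fourth reached the floor in Venus-negative cells only, so the filter on low signals fixed its direction, and its relative log2 ratio was -0.06.

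Several canonical ligands were dim in both fractions and dimmer in Venus-positive cells. Wnt7b, a canonical ligand of lung and bone, gave 31.3 in Venus-positive cells against 99.5 in Venus-negative cells, 3.17-fold lower, and a second probe set, at 4.12 and 20.3, was not measured. Wnt6, an ectodermal ligand, was at 26.5 in Venus-positive cells against 79.5 in Venus-negative cells, a log2 ratio of -1.58. Its second probe set was at 6.87 and 42.3, at least 1.88-fold lower. These Venus-positive signals lay close to or below the floor of 22.5. Wnt2 gave 1.36 in Venus-positive cells against 48.6 in Venus-negative cells and was at least 2.16-fold lower. Wnt9a, a ligand of joint-forming regions, was at 100.0 in Venus-positive cells against 202 in Venus-negative cells, 2.02-fold lower. Epidermis also makes Wnt ligands, and beside these values, 7 of the 8 epithelial and epidermal markers were lower by 2-fold or more in Venus-positive cells, with summed signals of 384 in Venus-positive cells against 1637 in Venus-negative cells. Of these markers, Cdh1 was at 27.9 in Venus-positive cells against 238 in Venus-negative cells, Krt14 at 19.6 and 183, and 2 lay below the floor in Venus-positive cells. The part of epithelial cells in the ligand signals was not tested.

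Wnt5b, expressed in prehypertrophic cartilage and a relative of Wnt5a, is counted among the 6 lower ligands, but its 2 probe sets differed and it passed 2-fold in 1 of the 8 alternatives that gave it a value. Its probe set 1439373_x_at gave 34.9 in Venus-positive cells against 80.9 in Venus-negative cells, 2.32-fold lower. The other, 1422602_a_at, gave 47.3 and 56.2, a log2 ratio of -0.25 that lies 0.08 above the median gene. Probe sets ending in _x_at can match several transcripts. Wnt4, which is expressed at joints and in prehypertrophic cartilage, was the one ligand above 0 as deposited. It gave 313 in Venus-positive cells against 216 in Venus-negative cells on 1 probe set and 144 and 99.9 on the other, 1.45-fold and 1.44-fold higher. Neither passed 2-fold, and the relative log2 ratios were 0.87 and 0.86.

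Wnt11, a ligand of the planar polarity branch, was at 105 in Venus-positive cells against 194 in Venus-negative cells, 1.85-fold lower. Wnt10a was at 5.76 and 37.0, at least 1.64-fold lower. Wnt16 was at 0.433 and 27.0, and Wnt7a at 8.94 and 23.2. For these last genes the Venus-positive signal was below the floor and the Venus-negative signal little above it, so the bound on the fold is near 1. Wnt2b (9.45 in Venus-positive cells against 1.85 in Venus-negative cells), Wnt3 (0.436 and 11.9), Wnt3a (3.35 and 17.3) and Wnt10b (3.99 and 8.76) were below the floor on both arrays and were not measured.

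**Figure D2:**
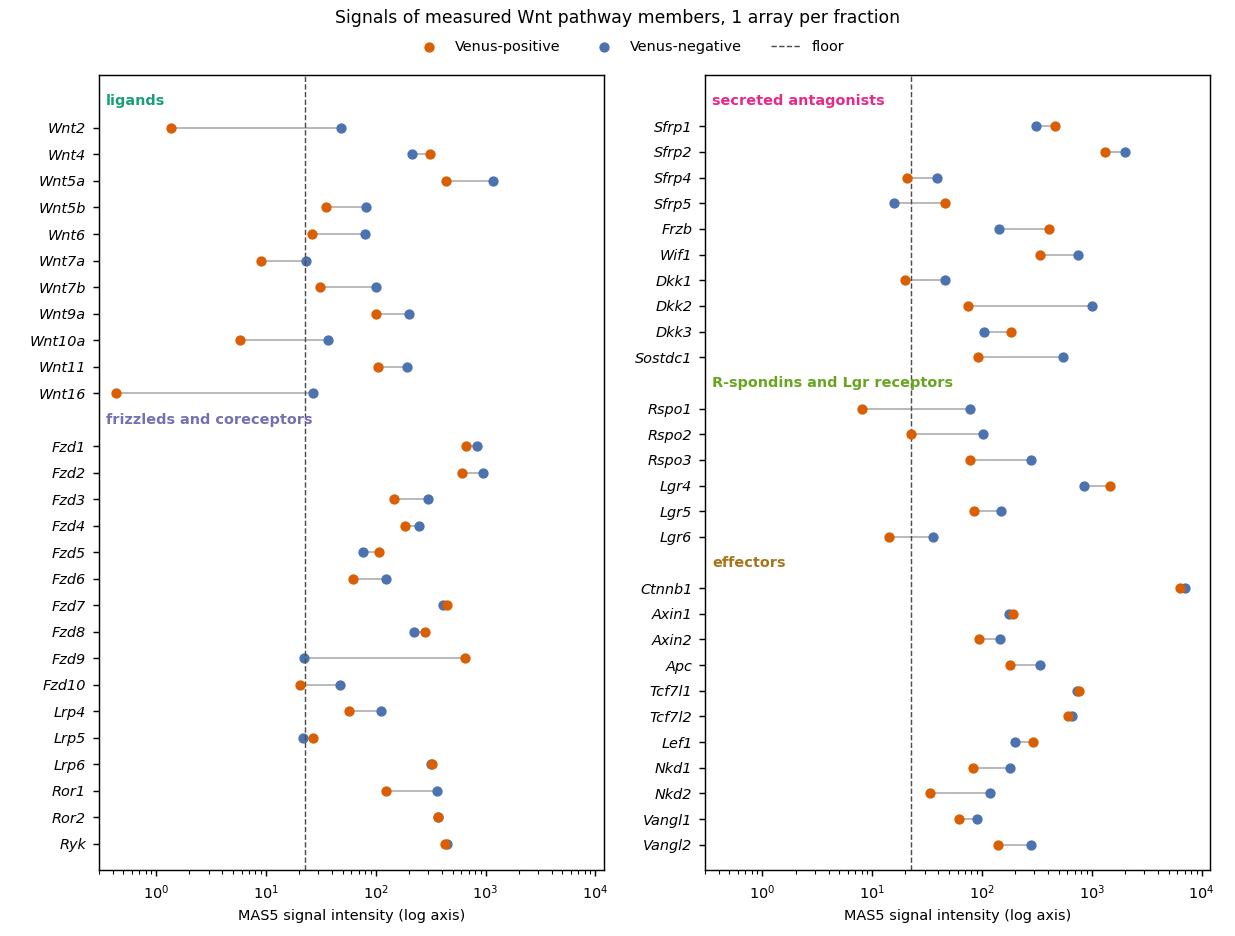
MAS5 signal intensity (log axis) of the probe set that stands for each of the 54 measured Wnt genes, in Venus-positive (orange) and Venus-negative cells (blue), 1 array each; the dashed line is the floor of 22.5. Signals can be compared within a row, not between genes. For Fzd9 the orange point lies far to the right of the blue one, and for Dkk2, Sostdc1 and the 3 Rspo genes it lies to the left.

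Receptor signals were mostly close between the fractions, with Fzd9 far apart from the others. All 16 receptor and coreceptor genes were measured, 1 was higher by 2-fold or more and 3 lower by as much, and the median log2 ratio was -0.19, or 0.14 relative to the median gene. These are 6.25% and 18.8% of the receptor genes, where 2.79% and 11.6% of all measured genes were. Relative to the median gene, 1 was higher and 1 lower by 2-fold. At 6.25% each, this is close to the 5.06% and 6.45% of all measured genes. Fzd9, a frizzled known for its role in bone formation, gave 643 in Venus-positive cells against 22.1 in Venus-negative cells on its only probe set, 1427529_at. The Venus-negative signal was just below the floor, so Fzd9 was at least 28.6-fold higher. On this bound it ranked 13 from the top among the 11789 measured genes, and with a floor at the 75th percentile the bound on the log2 ratio was 2.50. Its promoter window, printed above, is the most G and C rich of the 3.

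The other frizzled genes are described by sequence families. Fzd4 and Fzd10, the nearest relatives of Fzd9, had no excess in Venus-positive cells. Fzd4, also a receptor of norrin in blood vessels, was at 186 in Venus-positive cells against 247 in Venus-negative cells on one probe set and 101 and 168 on another, 1.33-fold and 1.67-fold lower, and its relative log2 ratio was -0.08. Fzd10 was at 20.3 in Venus-positive cells against 47.6 in Venus-negative cells, at least 2.12-fold lower, with a relative log2 ratio of -0.75 that is short of 2-fold. In the family of Fzd1, Fzd2 and Fzd7 no gene reached 2-fold. Fzd1 was at 668 in Venus-positive cells against 833 in Venus-negative cells, Fzd2 at 605 and 956, and Fzd7 at 441 and 408. The relative log2 ratios of these genes were 0.01, -0.33 and 0.45. Fzd5 was at 106 in Venus-positive cells against 76.9 in Venus-negative cells and its relative Fzd8 at 280 and 225, 1.38-fold and 1.25-fold higher, with a second Fzd8 probe set level at 74.1 and 75.4.

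Fzd3 and Fzd6, which act with the planar polarity proteins, were both lower by about the 2-fold size. Fzd3 was at 146 in Venus-positive cells against 299 in Venus-negative cells, 2.05-fold lower, and 3 further measured probe sets gave 103 and 146, 32.2 and 81.7, and 27.5 and 36.2, with log2 ratios of -0.50, -1.34 and -0.40. Fzd6 was at 62.2 and 124, a log2 ratio of -0.996, on 1 measured probe set. Relative to the median gene neither reached 2-fold (-0.70 and -0.66).

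Of the Lrp coreceptors of the canonical branch, Lrp6 was level as deposited. It was at 325 in Venus-positive cells against 315 in Venus-negative cells, and its second probe set at 266 and 262. Lrp5, whose loss reduces bone mass, was at 26.6 and 21.7. Its Venus-negative signal lay below the floor, so its ratio is a bound and cannot show a level signal. The relative log2 ratios were 0.38 for Lrp6 and 0.58 for Lrp5. Lrp4, which binds Sost and Dkk1 and opposes canonical signalling in bone, was at 56.5 in Venus-positive cells against 112 in Venus-negative cells, 1.98-fold lower. Among receptors outside the canonical branch, Ror2, the Wnt5a receptor needed for cartilage and limb growth, was level as deposited. It was at 370 in Venus-positive cells against 371 in Venus-negative cells, with a second probe set at 67.6 and 72.1. Its paralog Ror1 was at 124 in Venus-positive cells against 364 in Venus-negative cells on 1429313_at, 2.93-fold lower. A second Ror1 probe set was near the floor, at 11.5 and 23.4, and adds only a log2 ratio of -0.06 at the floor. Ryk, an atypical Wnt receptor, was at 425 in Venus-positive cells against 446 in Venus-negative cells. Ror2 was thus level where its ligand Wnt5a was 2.69-fold lower.

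**Figure D3:**
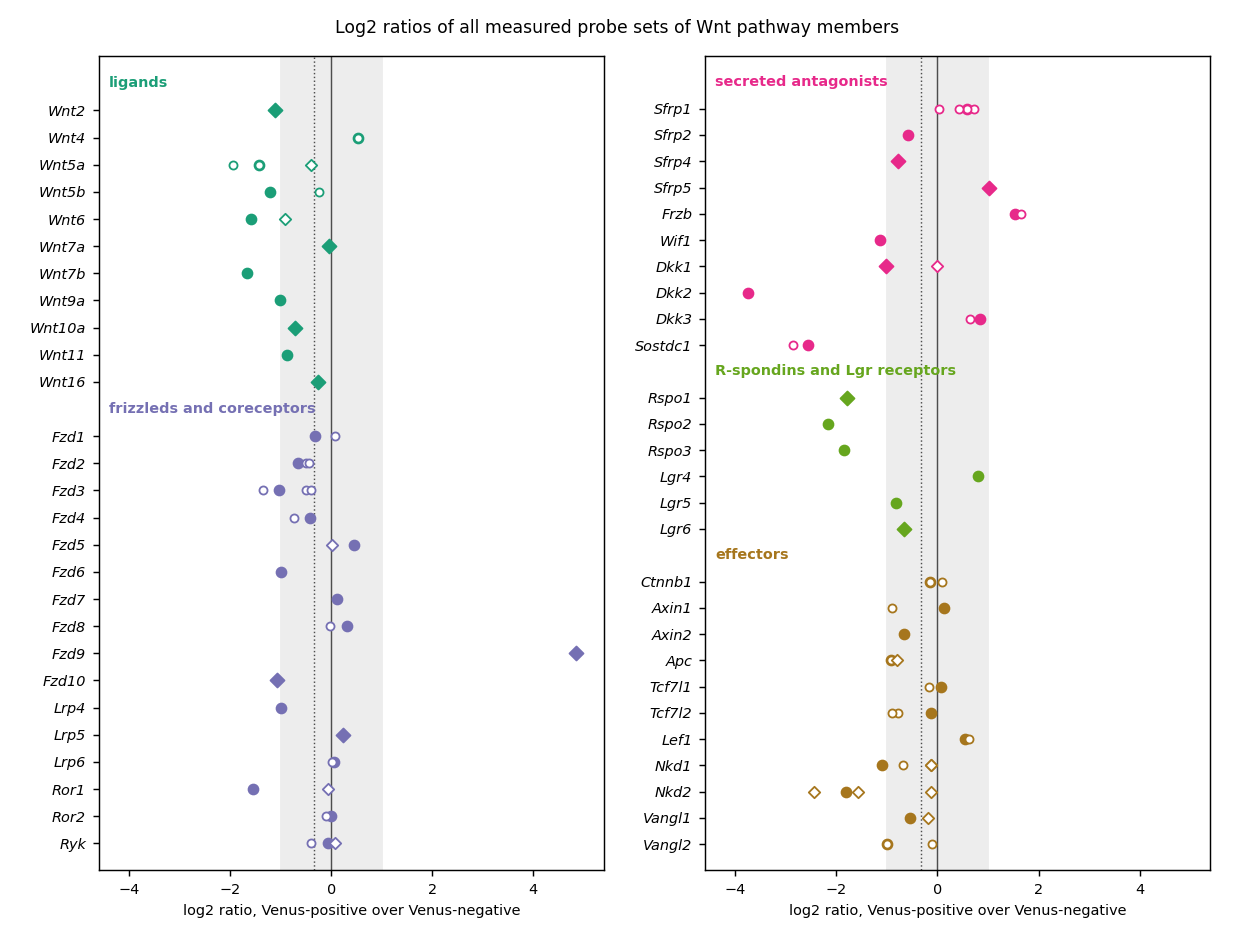
Log2 signal ratio (Venus-positive over Venus-negative) for every measured probe set of the 54 measured Wnt genes. Filled points stand for their gene, open points are further probe sets, diamonds are bounds with 1 side below the floor, the shaded band is within 2-fold, and the dotted line is the median of all measured genes at -0.33. Fzd9 lies at 4.84 and Dkk2 at -3.75, while most receptors and effectors lie within the band.

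The secreted antagonists split in both directions. Of 11 genes 10 were measured, and 2 were higher by 2-fold or more and 4 lower by as much. These are 20% and 40% of the measured antagonists, where 2.79% and 11.6% of all measured genes were. Relative to the median gene 3 were higher and 2 lower, or 30% and 20%, against 5.06% and 6.45% of all measured genes. The median log2 ratio was -0.68. The following division by binding partner is textbook knowledge but was made with the values known. The 3 measured antagonists that bind Lrp5 and Lrp6 were all lower by 2-fold or more in Venus-positive cells, with a median log2 ratio of -2.56, and 2 of the 3 were relative to the median gene. Of the 6 antagonists that bind Wnt ligands, 2 were higher by 2-fold or more and 1 was lower (2 and 0 relative to the median gene), with a median log2 ratio of -0.0047.

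Dkk2, an Lrp5 and Lrp6 ligand with a cysteine-rich fold, gave 73.9 in Venus-positive cells against 993 in Venus-negative cells on its only probe set, 1420512_at, 13.4-fold lower. It ranked 12 from the bottom among the 11789 measured genes. Its promoter window, printed above, carried the TATA match. Sostdc1, which also inhibits BMP ligands, was at 92.3 in Venus-positive cells against 544 in Venus-negative cells, 5.90-fold lower, and at 33.4 and 242 on its second probe set, 7.25-fold lower. Both Sostdc1 probe sets were past 4-fold. Dkk1, needed for head and limb development, was at 20.1 in Venus-positive cells against 45.6 in Venus-negative cells, at least 2.03-fold lower, with a second probe set at 6.58 and 22.6. It passed 2-fold in 2 of the 8 alternatives that gave it a value. Sost (sclerostin), a product of osteocytes, was below the floor on both arrays, at 7.70 in Venus-positive cells against 19.4 in Venus-negative cells on the brighter probe set, and was not measured.

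Frzb, first isolated from cartilage and a binder of Wnt ligands, gave 410 in Venus-positive cells against 141 in Venus-negative cells, 2.90-fold higher. Its second probe set gave 119 and 38.1, 3.13-fold higher, so both Frzb probe sets passed 2-fold. Sfrp5 was at 45.5 in Venus-positive cells against 15.8 in Venus-negative cells, at least 2.02-fold higher, close to the 2-fold size. Its other probe set, at 16.1 and 3.17, was not measured. Sfrp1 was above 1 on all of its 5 probe sets, from 1.03-fold to 1.66-fold higher, with 460 in Venus-positive cells against 309 in Venus-negative cells on the one that stands for it. Its relative log2 ratio was 0.91, short of 2-fold. Dkk3, a member of the Dkk family that is not an Lrp inhibitor of the usual kind, was at 185 in Venus-positive cells against 103 in Venus-negative cells, 1.79-fold higher, and passed 2-fold relative to the median gene with 1.17. Its second probe set gave 162 and 103, with a relative log2 ratio of 0.98.

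Of the remaining Wnt binders, Wif1 alone passed 2-fold, and only as deposited. Wif1, a secreted inhibitor known from cartilage and its surroundings, was at 340 in Venus-positive cells against 749 in Venus-negative cells, 2.21-fold lower, with a relative log2 ratio of -0.81. Sfrp2 was at 1327 in Venus-positive cells against 1991 in Venus-negative cells, a log2 ratio of -0.58, or -0.25 relative to the median gene. Sfrp4 was at 20.5 and 38.5, at least 1.71-fold lower. As deposited, Sfrp1 and Sfrp5 thus lay above 0 and Sfrp2 and Sfrp4 below it. Fibroblast and perichondrial markers were lower in Venus-positive cells beside these values. The proteoglycan gene Dcn was at 156 in Venus-positive cells against 2483 in Venus-negative cells, and Tnmd, a tendon marker, at 50.6 and 369, and 3 of the 13 lay below the floor in Venus-positive cells. The part of these cells in the antagonist signals was not tested.

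R-spondin genes were lower, while none of their receptor genes reached 2-fold as deposited. R-spondins are secreted proteins that raise the amount of frizzled and Lrp receptors on the cell surface by binding Lgr receptors and the ligases Rnf43 and Znrf3. All 3 R-spondin genes were lower by 2-fold or more on both scales, where 11.6% of all measured genes were as deposited and 6.45% relative to the median gene. Rspo2, required for limb growth, was at 22.6 in Venus-positive cells against 101 in Venus-negative cells, 4.50-fold lower, on probe set 1455893_at. Rspo3, needed for placental and vascular development, was at 77.6 in Venus-positive cells against 279 in Venus-negative cells, 3.60-fold lower. Rspo1 was at 8.04 in Venus-positive cells against 78.1 in Venus-negative cells, at least 3.47-fold lower. Each rests on 1 measured probe set. The Venus-positive signal of Rspo2 was at the floor. That of Rspo1 was below it, so the filter on low signals fixed the direction of Rspo1.

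Among the receptors, Lgr4 was at 1471 in Venus-positive cells against 847 in Venus-negative cells, 1.74-fold higher, and passed 2-fold relative to the median gene with 1.13. Lgr5, a stem cell marker of intestine and hair follicle and a canonical target, was at 83.9 in Venus-positive cells against 149 in Venus-negative cells, 1.78-fold lower. Lgr6 was at 14.3 and 35.7, at least 1.58-fold lower. The 6 genes together had a median log2 ratio of -1.31, with Lgr4 the one gene above 0.

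Effector signals were mostly within 2-fold. Of 12 genes 11 were measured. As deposited 3 were lower by 2-fold or more, or 27.3%, where 11.6% of all measured genes were, and none was higher. Relative to the median gene 1 was lower, or 9.09%, near the 6.45% of all measured genes. The median log2 ratio of the effectors was -0.55. Ctnnb1, the gene of beta-catenin, gave 6387 in Venus-positive cells against 7104 in Venus-negative cells, and its other probe sets gave 1164 and 1294, and 138 and 130. Its relative log2 ratio was 0.18. In the destruction complex, Apc was at 179 in Venus-positive cells against 337 in Venus-negative cells, 1.88-fold lower. Of 2 further measured Apc probe sets, the brighter gave 97.5 and 185, a log2 ratio of -0.92. The other, at 17.6 and 39.2, was below the floor in Venus-positive cells and at least 1.74-fold lower. The 2 probe sets of Axin1 disagreed, at 193 against 176 and at 32.9 against 61.7.

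Among nuclear partners of beta-catenin, Lef1 gave 290 in Venus-positive cells against 198 in Venus-negative cells and 37.8 and 24.6 on a second probe set, 1.47-fold and 1.54-fold higher. Tcf7l1, mostly a repressor, was at 770 in Venus-positive cells against 734 in Venus-negative cells. Tcf7l2 was at 605 and 664, while 2 further probe sets gave log2 ratios of -0.79 and -0.89. Axin2, a feedback inhibitor that canonical signalling induces in many tissues, was at 93.2 in Venus-positive cells against 147 in Venus-negative cells, 1.58-fold lower and within 2-fold. Nkd2, an inhibitor of dishevelled, was at 33.7 in Venus-positive cells against 118 in Venus-negative cells, 3.49-fold lower. Further Nkd2 probe sets gave 15.6 and 123 (at least 5.47-fold lower), 18.6 and 67.3 (at least 2.99-fold lower), and 13.0 and 24.6. Its paralog Nkd1 was at 83.5 in Venus-positive cells against 178 in Venus-negative cells, 2.13-fold lower. Of 3 further Nkd1 probe sets, the brightest gave 55.3 and 88.4, a log2 ratio of -0.68. The others, at 7.97 and 24.6 and at 18.1 and 24.5, were below the floor in Venus-positive cells. They were at least 1.10-fold and at least 1.09-fold lower.

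The planar polarity genes gave mixed probe sets. Vangl2, a core membrane protein of the polarity complex, was at 140 in Venus-positive cells against 281 in Venus-negative cells on 1436118_at, 2.01-fold lower, and at 51.0 and 102 on another. The third Vangl2 probe set was at 107 and 116, a log2 ratio of -0.12. Vangl1 was at 61.8 in Venus-positive cells against 90.7 in Venus-negative cells, 1.47-fold lower. Several of the genes lay close to the 2-fold size. Within 0.15 of it on the log2 scale there were 13 of them, with Sfrp5 the one gene higher in Venus-positive cells. Just past the 2-fold size were Vangl2 (-1.01), Wnt9a (-1.02), Dkk1 (-1.02) and Sfrp5 (1.02), and just short of it were Fzd6 (-0.996), Lrp4 (-0.988) and Apc (-0.911).

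**Figure D4:**
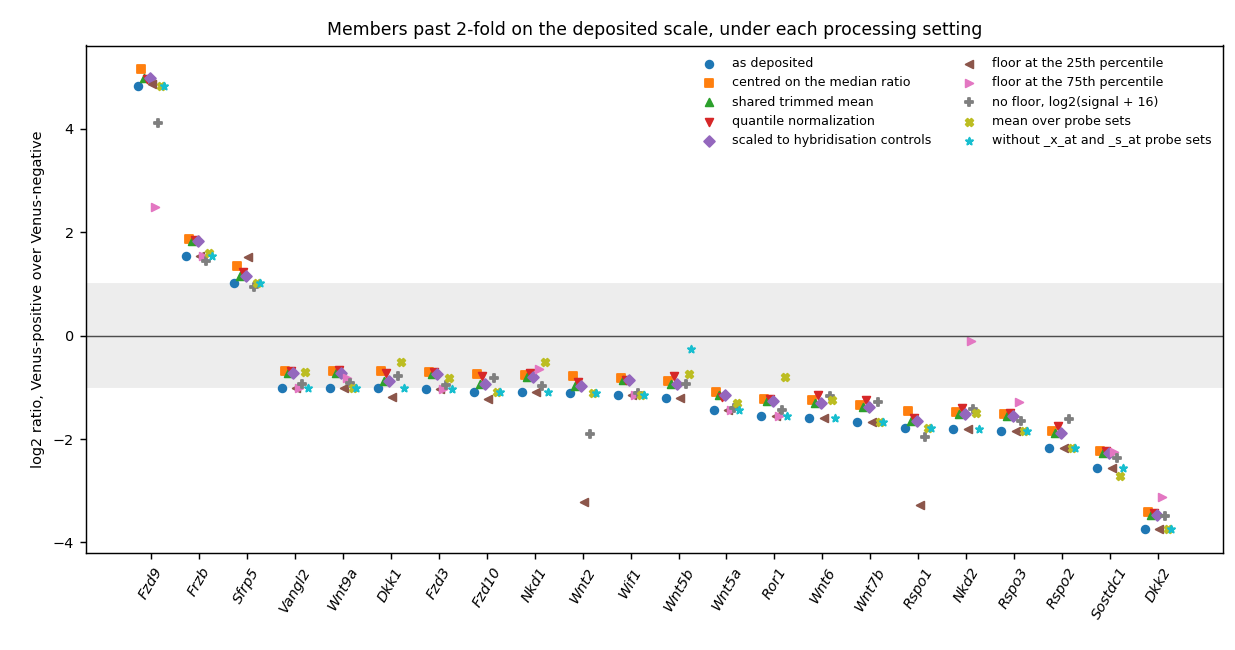
Log2 signal ratio (Venus-positive over Venus-negative) for the 22 Wnt genes past 2-fold on the deposited scale, under each processing setting (symbols). The shaded band is within 2-fold. All points of a gene lie on the same side of 0, and those of Fzd9, Frzb, Wnt5a, Rspo3, Sostdc1 and Dkk2 stay outside the band under all 9 alternatives.

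A further 55 genes of the pathway outside these 60 were listed for comparison, of which 42 were measured and Kremen2 was not analysed here. Of these, 2 were higher by 2-fold or more and 9 lower by as much, or 4.76% and 21.4%, where 2.79% and 11.6% of all measured genes were. Relative to the median gene 4 were higher and 4 lower, or 9.52% each, against 5.06% and 6.45% of all measured genes. The genes past 2-fold on both scales were Gpc6 and Dact1, higher, and Apcdd1, Kremen1, Tnfrsf19 and Cd44, lower. Apcdd1, a membrane inhibitor of Wnt signalling and a canonical target, was at 255 in Venus-positive cells against 1725 in Venus-negative cells, 6.77-fold lower, and its 5 probe sets gave log2 ratios from -2.85 to -2.26. Kremen1, the receptor through which Dkk1 and Dkk2 remove Lrp6 from the surface, was at 58.4 in Venus-positive cells against 173 in Venus-negative cells, 2.96-fold lower. Gpc6, a glypican proteoglycan, was at 1311 in Venus-positive cells against 562 in Venus-negative cells, 2.33-fold higher.

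Dact1, a binder of dishevelled, was at 1496 in Venus-positive cells against 748 in Venus-negative cells, 2.00-fold higher and at the 2-fold size. Among genes listed as transcriptional targets in many cells, Tnfrsf19 was at 50.4 in Venus-positive cells against 286 in Venus-negative cells, 5.68-fold lower, with a second probe set at a log2 ratio of -0.91. Cd44, an adhesion receptor also abundant on leukocytes, was at 75.5 in Venus-positive cells against 389 in Venus-negative cells, 5.16-fold lower, but one of its 3 measured probe sets gave only -0.19. All 6 leukocyte and macrophage markers were lower by 2-fold or more beside it, with summed signals of 138 in Venus-positive cells against 1645 in Venus-negative cells and 3 of them below the floor in Venus-positive cells. Csf1r was at 48.0 in Venus-positive cells against 758 in Venus-negative cells and Mrc1 at 24.0 and 314. Their part in the Cd44 signal was not tested. Of 6 measured targets, 3 were lower by 2-fold or more and none higher, where 11.6% and 2.79% of all measured genes were. Relative to the median gene 2 targets were lower and 1 higher, where 6.45% and 5.06% of all measured genes were. The target higher on the relative scale was Myc, at 505 in Venus-positive cells against 298 in Venus-negative cells. Ccnd1, a cyclin, was at 2316 and 1517, 1.53-fold higher. None of the 3 genes of ligand processing reached 2-fold. Porcn, which attaches the lipid to Wnt proteins, was at 42.1 in Venus-positive cells against 44.9 in Venus-negative cells, and Wls, which carries them to the surface, at 562 and 1057, 1.88-fold lower.

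In muscle, endothelium and red cells the Venus-negative fraction also held more marker signal. All 6 skeletal muscle, all 6 endothelial and all 4 measured erythroid markers were lower by 2-fold or more in Venus-positive cells, and 4 of 6 neuronal markers were. Summed signals in Venus-positive and Venus-negative cells were 293 and 3897 for muscle, 124 and 702 for endothelium, 356 and 4098 for erythroid cells and 176 and 813 for neurons. The 2 markers of each type with the largest differences were Tnnt1 (36.6 in Venus-positive cells against 589 in Venus-negative cells) and Myog (40.9 and 645) for muscle, Plvap (22.3 and 153) and Emcn (30.2 and 162) for endothelium, and Slc4a1 (49.2 and 867) and Alas2 (38.8 and 444) for erythroid cells. For neurons they were Nefl (41.7 in Venus-positive cells against 223 in Venus-negative cells) and Nefm (46.2 and 235). In Venus-positive cells 3 muscle, 3 endothelial, 2 neuronal and 1 erythroid marker lay below the floor. Of 5 measured osteoblast markers 3 were higher by 2-fold or more and none lower, with Ifitm5 at 121 in Venus-positive cells against 28.0 in Venus-negative cells, Sp7 at 95.7 and 19.5, and Col1a1 at 1189 and 1900, 1.60-fold lower. Their summed signals were 1812 in Venus-positive cells against 2094 in Venus-negative cells. The part of each of these cell types in the Wnt gene signals was not tested.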

How the data were processed

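Gene expression was measured on 2 arrays, 1 per cell fraction (Venus-positive, Venus-negative), grouped by the labels. Biotin-labelled cRNA was made from 100 ng of total RNA, per the labels. The deposited values are linear signal intensities from MAS5, which the submitters' processing notes name. The software version, the scaling target and detection calls were not stated there. Trimmed means (2% at each end) were 108 for Venus-positive cells and 132 for Venus-negative cells, so the arrays do not share a scale.

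From the 45101 probe sets, 64 controls were set aside, and 34945 of the rest had 1 symbol in the platform annotation. Symbols of 59 of the 60 genes matched RefSeq (GRCm38.p6) by gene identifier. Ratios, the floor and the choice of probe set are described with the results, and were computed in Python 3.11.15 with pandas 2.3.3 and numpy 2.4.6. The counts at 2-fold are sizes and no tests, and the number of arrays limits the precision. The procedure was tested on simulated data with known changes. The planted changes were well past 2-fold, in genes with Venus-negative signals well above the floor. The simulation therefore does not cover differences near 2-fold or signals near the floor. The genes and lists were chosen with earlier results of these data known. Named in full were genes past 2-fold on either scale and the 4 with the largest absolute log2 ratio of each role; others were named by role after their values were seen. Of further pathway genes those past 2-fold on both scales were named, plus Porcn and Wls after their values were seen, and of markers the 2 with the largest absolute log2 ratio per list. Alternatives were 4 other scalings (median ratio, trimmed mean, quantiles, 18 hybridisation controls), 3 treatments of low signals (floors at the 25th and 75th percentile, log2(signal + 16) without a floor) and 2 rules for probe sets. Coordinates of genes are not given, since the files name no genome build; promoter windows are RefSeq's.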

Additional observations from a re-analysis of the deposited data

How the results depend on the processing

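With 1 array per fraction there was no replicate to leave out, and the spread between samples is unknown for every value here. No paired analysis was possible because each fraction has a single array. Of 748 values of single genes and probe sets under the alternatives, 656 moved by less than the SD of 0.34 between probe sets of a gene. The other 92 moved by more, and no value past 2-fold changed sign. Scaling by the median ratio shifts every value by 0.33, so under it no value could move by more than this SD. Nor could a shift of this size change the sign of a value past 2-fold. These counts are therefore in part fixed by the settings. Of the 22 Wnt genes past 2-fold, Fzd9, Frzb, Wnt5a, Rspo3, Sostdc1 and Dkk2 stayed past it under all 9 alternatives, and Wnt6, Wnt7b, Rspo1 and Rspo2 under the 8 that gave them a value. Each of the 4 other scalings (median ratio, trimmed mean, quantiles, hybridisation controls) gave the same counts: 5 Wnt genes higher and 10 lower in all, 3 ligands, 1 receptor, 2 antagonists and 1 effector lower, 1 R-spondin or Lgr gene higher, and 4 other Wnt pathway genes higher and 4 lower. Under quantile normalization the median log2 ratio was -0.15 for effectors, -1.92 for epithelial and -1.58 for neuronal markers. A floor at the 25th percentile gave 11 lower ligands with a median of -1.38, and medians of -2.60 for endothelial and -3.61 for leukocyte markers. A floor at the 75th percentile left 36 Wnt genes measured, with 8 lower and a median of -0.24. It gave 1 lower ligand, 1 higher antagonist, 1 lower R-spondin or Lgr gene (median -0.38), 1 lower effector (median -0.14) and 5 lower other Wnt pathway genes. Marker medians there were 3.75 for chondrocytes, 0.085 for osteoblasts, -0.43 for endothelium, -0.84 for epithelium, -2.93 for erythroid cells, -0.98 for leukocytes, -0.97 for neurons and -2.43 for muscle. These floors change which genes count as measured. With log2(signal + 16) and no floor, 1 effector and 1 receptor were lower, 1 antagonist and 1 other Wnt pathway gene higher, and medians were -2.72 for leukocytes, -1.61 for neurons and -3.15 for muscle. With the mean over probe sets, 1 effector and 1 receptor were lower. Fzd9 lay between 2.50 and 5.17 on the log2 scale over the alternatives. Wnt5b was at -0.25 without probe sets named _x_at or _s_at, Nkd2 at -0.11 with the higher floor and Ror1 at -0.80 with the mean over probe sets.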
